A study of Mus musculus with 8 samples.

Results

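The immediate early genes and Nr4a factors described here are 10 transcription factor genes, *Fos*, *Fosb*, *Jun*, *Junb*, *Jund*, *Egr1*, *Atf3*, *Nr4a1*, *Nr4a2* and *Nr4a3*. They were taken by symbol from the 32285 genes of the deposited matrices, and all 10 were found. They were measured in CD45+ immune cells sorted from orthotopic mouse mammary tumors and profiled by single-cell RNA sequencing at day 18. The tumors grew from parental E0771 cells, a mouse mammary carcinoma line used as a model of triple-negative breast cancer, or from its derivatives E0771-Res1 and E0771-Res2. Both derivatives come from E0771 tumors that had grown back after combined paclitaxel and PD-1 blockade, and each is 1 line. Naive parental tumors came from 2 mice here (the third parental mouse was not analysed here), and each resistant line from 3 mice. The labels give no treatment after implantation, no strain, no age and no sex, and all tumors were digested with collagenase for 45 min at 37 °C. Counts were summed per mouse, and the mouse was the replicate throughout.

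Immediate early genes are switched on within minutes of a stimulus, without new protein synthesis, when kinases activate transcription factors already bound at their promoters, such as SRF and CREB. Fos and Jun proteins pair into the AP-1 factor, Egr1 is a zinc finger factor and Atf3 a stress-induced relative of AP-1. The Nr4a proteins are orphan nuclear receptors induced by antigen receptor signaling in T cells, where they are known for their part in exhaustion, and by inflammatory signals in macrophages. Enzymatic digestion at 37 °C is itself known to induce many of these genes, and its part in the levels below was not tested.

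Cyclic AMP signaling reaches the *Nr4a* and *Fos* promoters through CREB, whose binding element contains the core TGACG. Promoters are shown for the *Nr4a* genes, which share this core, and for *Fos* and *Jun*, the AP-1 partners they are read against below. Each is the 250 bases before the annotated start, written 5′ to 3′ on the gene's strand, from RefSeq (GRCm38.p6). Capitals mark TGACG on either strand (CGTCA on the opposite one). The stretches are *Nr4a1* at chr15:101266596-101266845 (+), *Nr4a2* at chr2:57124004-57124253 (-), *Nr4a3* at chr4:48045055-48045304 (+), *Fos* at chr12:85473640-85473889 (+) and *Jun* at chr4:95052223-95052472 (-).
Nr4a1: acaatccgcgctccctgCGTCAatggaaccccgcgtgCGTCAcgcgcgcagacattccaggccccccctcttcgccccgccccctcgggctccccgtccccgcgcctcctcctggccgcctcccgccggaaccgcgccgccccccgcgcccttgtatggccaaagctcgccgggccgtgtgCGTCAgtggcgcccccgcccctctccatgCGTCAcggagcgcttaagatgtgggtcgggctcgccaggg
Nr4a2: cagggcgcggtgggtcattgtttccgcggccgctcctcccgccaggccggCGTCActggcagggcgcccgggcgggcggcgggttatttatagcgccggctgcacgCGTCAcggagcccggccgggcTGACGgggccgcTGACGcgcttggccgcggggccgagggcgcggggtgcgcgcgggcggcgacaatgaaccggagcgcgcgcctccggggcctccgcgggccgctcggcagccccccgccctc
Nr4a3: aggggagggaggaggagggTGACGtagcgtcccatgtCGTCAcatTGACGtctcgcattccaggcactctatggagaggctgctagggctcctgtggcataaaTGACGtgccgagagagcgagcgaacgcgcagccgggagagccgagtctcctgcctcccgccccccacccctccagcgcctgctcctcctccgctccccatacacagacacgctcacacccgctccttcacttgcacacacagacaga
Fos: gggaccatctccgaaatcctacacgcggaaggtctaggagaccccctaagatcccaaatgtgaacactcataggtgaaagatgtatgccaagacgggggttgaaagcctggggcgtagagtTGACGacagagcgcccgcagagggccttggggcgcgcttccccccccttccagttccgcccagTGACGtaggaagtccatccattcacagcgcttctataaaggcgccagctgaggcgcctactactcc
Jun: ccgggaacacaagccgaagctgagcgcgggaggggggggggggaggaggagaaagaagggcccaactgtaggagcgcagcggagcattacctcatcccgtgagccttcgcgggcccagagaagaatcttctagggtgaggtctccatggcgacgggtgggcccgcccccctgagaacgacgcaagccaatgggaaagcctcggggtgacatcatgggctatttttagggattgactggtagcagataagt

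All 3 *Nr4a* promoters held 4 copies of this core. In *Nr4a1* all lay on the opposite strand, the farthest ending 229 and the nearest 36 bases before the start. *Fos* held 2 copies and *Fosb*, *Junb* and *Atf3* 1 each, while *Jun* and *Jund* had none. The promoter set searched holds 9 of the 10 members and has no entry for *Egr1*. Of its 32851 promoters, 17.8% had at least 1 copy, 3.90% at least 2 and 0.137% at least 4. The full element TGACGTCA (1.55% of promoters), the AP-1 site TGACTCA (4.46%) and the CArG box bound by SRF (1.47%) were in none of these 9 stretches. The Egr1 site GCGGGGGCG (2.57%) was in *Fosb* and *Nr4a1*. The promoter of *Egr1* itself was not searched, nor was any sequence beyond these 250 bases. The absence of a site, the CArG box included, holds for this window only. All were searched on both strands, and every full element holds the core on each strand. These matches describe letters only.

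Of 11430 deposited cells, 10605 passed the limits of 500 to 6000 detected genes and under 10% mitochondrial counts, and 0 barcodes were shared between mice. Each mouse gave 604 to 2020 kept cells, with a median of 7631 to 8160 UMIs (unique molecules counted) per cell in parental and E0771-Res1 tumors and 5589 to 7001 in E0771-Res2 tumors. Marker gates set 5 populations apart. Outside them were 1513 myeloid cells with 2 to 9 C1qa UMIs and 3393 cells of no gate (32.0% of kept cells), which were not tested as groups. Myeloid cells were split by *C1qa*, a complement gene of mature tumor macrophages, into 1791 cells with 10 or more C1qa UMIs and 3482 with at most 1. T cells were split into 110 CD8 T cells (*Cd8a* or *Cd8b1* detected, *Cd4* not) and 204 other T cells (neither *Cd8a* nor *Cd8b1*), and 112 cells were NK cells. No member was a gate gene. As a description, the summed T cell markers stood at 4673 to 10458 CPM (counts per 1000000 counts) in the T cell gates against 18.9 to 64.3 in both myeloid gates. The T cell list holds *Cd3d*, *Cd3e* and *Cd3g*, which set the gates, so this contrast is no independent check of the names. The summed tumor and stromal markers (keratins and collagens among them) stood at most at 69.7 CPM in any gate. Only sums of at least 10 cells were used, which left all 8 mice for both myeloid gates, 5 for CD8 T cells, 7 for other T cells and 6 for NK cells.

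Levels are given first by cell type. *Fos*, the partner that gives AP-1 its strong DNA binding, was high in both myeloid gates, at 1792 ± 131 CPM (SD, n = 8) in C1qa-high and 1789 ± 486 (n = 8) in C1qa-low cells. It stood at 734 ± 365 (n = 7) in other T, 665 ± 349.8 (n = 6) in NK and 485 ± 70.3 (n = 5) in CD8 T cells. Every myeloid sum, the lowest at 1179.8, lay above all lymphocyte sums except other T cells of E0771-Res2 replicate 2, at 1416, and NK cells of E0771-Res2 replicate 3, at 1345. *Atf3*, induced by cellular stress, ran the same way, at 988 ± 105 and 1319 ± 198 CPM in C1qa-high and C1qa-low myeloid cells. In other T, NK and CD8 T cells it stood at 424 ± 234, 406 ± 405 and 180.1 ± 65.6 CPM. The NK mean rests on E0771-Res2 replicate 3, at 1207 CPM in a sum that also held 5908 CPM of the myeloid gene *Cst3*, and without it was 246 ± 111 CPM (n = 5). *Jund*, the Jun protein that resting cells also carry, had the opposite order, with 843 ± 136 and 1163 ± 219 CPM in C1qa-high and C1qa-low cells. CD8 T, NK and other T cells were at 2484 ± 472, 2022 ± 494 and 1922 ± 291 CPM, and their ranges overlapped. *Junb*, which shapes effector programs in T cells and macrophages, was lowest in C1qa-high cells, 1622 ± 208 CPM, and lay between 2317 and 2762 on average elsewhere.

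Mean levels by gate ran from 765 to 1222 CPM for *Jun*, from 262 to 403 for *Fosb*, a Fos relative that also pairs with Jun, and from 82.8 to 154 for *Egr1*, and the mice of all gates overlapped. In droplet data free RNA from abundant cells reaches other cells. *Lyz2* and *Cst3*, myeloid genes, had a median of 0.04 and 0.14 times the C1qa-low level in the CD8 T cells of the same mouse, against 0.27 for *Fos* and 0.17 for *Atf3*. In NK cells the values were 0.06 and 0.15 against 0.30 and 0.20. In other T cells *Cst3* stood at 0.77 of the C1qa-low level while *Lyz2* was at 0.09, with *Fos* at 0.34 and *Atf3* at 0.31. The summed dendritic markers reached 746 CPM in that gate (2 of 8, *Xcr1* and *Clec9a*, at 0), and their part in its values was not tested. The *Atf3* ratio of CD8 T cells was thus close to that of *Cst3* and above that of *Lyz2*. The part of free RNA in the lymphocyte levels of *Fos* and *Atf3* was not tested.

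*Nr4a2*, known from dopamine neurons and from exhausted T cells, was the member most unequal between gates. The CD8 T sums were 990.2 CPM for parental replicate 1, 613, 1011 and 443 for E0771-Res1 replicates 1 to 3, and 766 for E0771-Res2 replicate 2. No other gate reached this range except NK cells of E0771-Res1 replicate 3, at 479. Other T cells had 73.8 to 299 CPM and NK cells 173 to 479, which overlapped, and C1qa-low and C1qa-high myeloid cells had 53.4 to 154 and 12.4 to 41.7 CPM, which did not. In cells thinned to 2500 UMIs, a *Nr4a2* UMI was found in 64.1% of CD8 T, 29.4% of NK, 21.2% of other T, 12.4% of C1qa-low and 4.0% of C1qa-high cells (80%, 52.7%, 35.3%, 23.3% and 11.6% unthinned). *Nr4a3*, its close relative, also peaked in CD8 T cells, with 202, 198, 192, 165 and 346 CPM in the same 5 mice. The order continued with other T (74.3 to 209.5), NK (12.1 to 125), C1qa-low (19.4 to 68.8) and C1qa-high cells (7.45 to 26.6), each overlapping its neighbor. *Nr4a1*, the member that reports recent T cell receptor signaling, did not follow. It was highest in C1qa-low myeloid cells, 419 to 505 CPM, above every CD8 T (148 to 243) and C1qa-high sum (117 to 263) and above every other T (255 to 408) and NK sum (64.6 to 416).

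**Figure D1:**
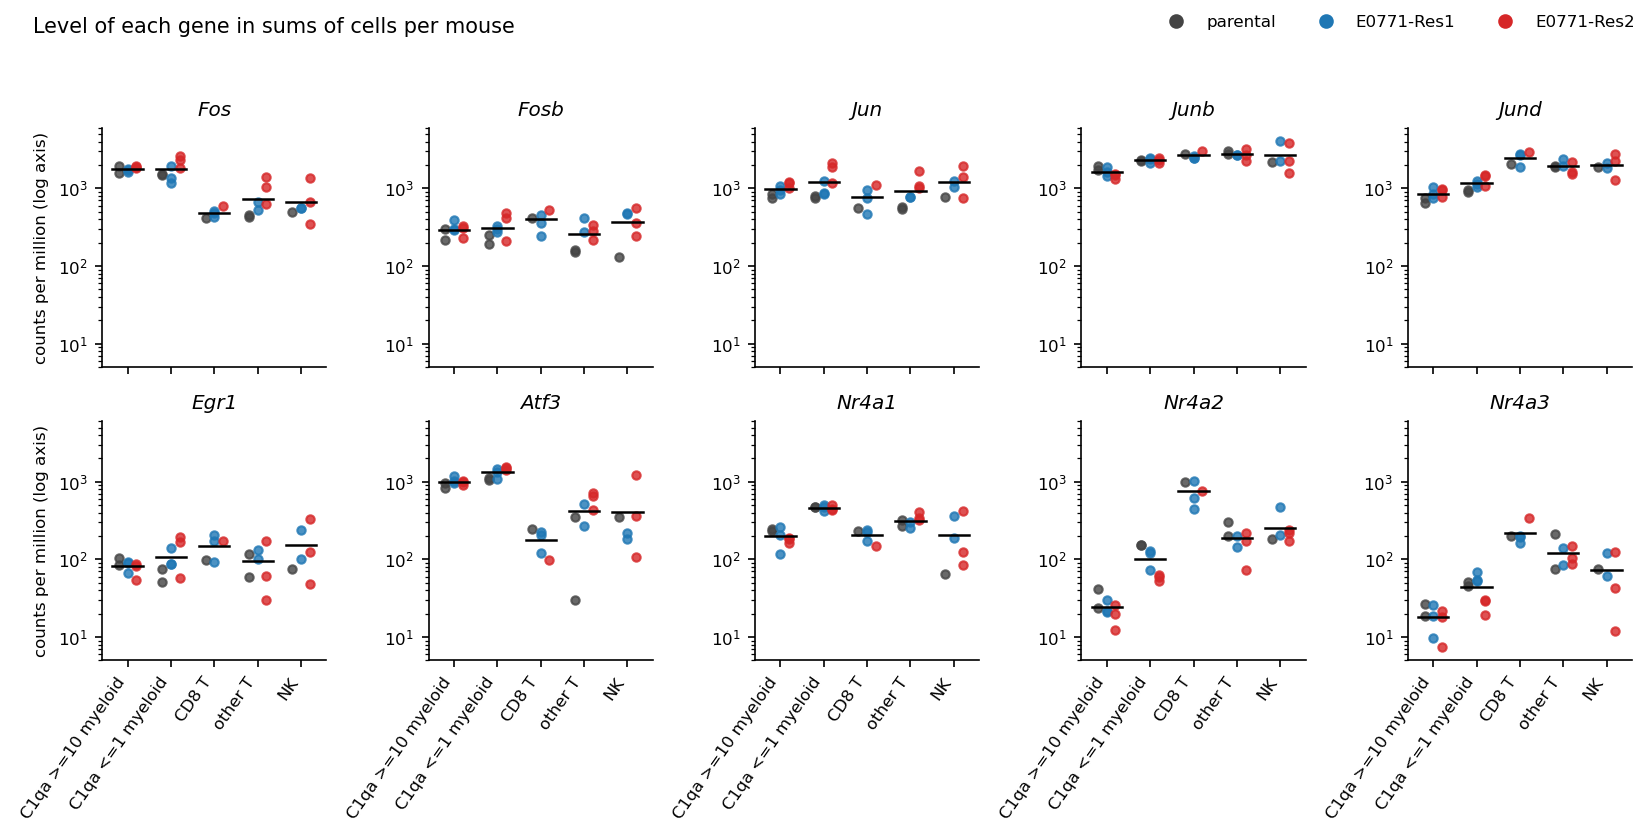
CPM of each member (vertical axes, log scale) in 5 gated populations, 1 point per mouse colored by tumor line, with a bar at the mean over mice. *Fos* and *Atf3* sit highest in the myeloid gates and *Nr4a2* and *Nr4a3* in CD8 T cells, while *Nr4a1* is highest in C1qa-low myeloid cells.

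Cell types were compared within mice by edgeR's quasi-likelihood test with the mouse as a block, with Benjamini-Hochberg adjustment over all genes, and a gene was called at an adjusted p under 0.05. TMM normalization in this test rescales libraries, so its fold changes differ from ratios of the CPM above. Between CD8 and other T cells of 4 mice, 9.27% of all genes were called, 3.39% higher and 5.88% lower in CD8 T cells, and 3 of 10 members. *Nr4a2* was higher in CD8 T cells by 2.11 ± 0.26 (log2 fold change ± SE, edgeR adjusted p = 6.48e-05) and *Nr4a3* by 1.17 ± 0.29 (adjusted p = 0.0139). *Atf3* was lower, at -1.20 ± 0.24 (edgeR adjusted p = 0.00339), and the part of free RNA in this difference was not tested. *Nr4a3* was not called by DESeq2 (1.18, 0.185) or without parental replicate 1, E0771-Res1 replicate 1 or E0771-Res2 replicate 2 (0.92 to 1.16), while *Nr4a2* was called in every alternative run. Wider gates that admit a few myeloid UMIs, chosen after seeing the data, called 5 members, and the share of all genes called there is not reported here. Of 16 T cell activation genes tested, 4 were higher in CD8 T cells, among them *Pdcd1* (PD-1, 1.34), *Lag3* (1.34), *Tox* (1.01), which drives exhaustion, and the cytokine *Ifng* (1.84), and 6 were lower, among them *Il2ra* (-3.14) and *Ctla4* (-1.90), which mark regulatory T cells. None of 30 other immediate early genes tested was higher and 7 were lower. The median difference was 0.08 over members and 0.02 over all genes. CD8 T cells were also the deeper ones, with a median of 6004 to 10355 UMIs per cell by mouse against 3708 to 5546.5. Other T cells are set by the absence of *Cd8a* and *Cd8b1* UMIs, which depth also affects. The part of depth in this comparison was not tested beyond the alternative runs.

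NK cells were compared with CD8 T cells in 4 mice, where 5.03% of genes were called (2.56% lower in NK cells). *Nr4a2* was lower in NK cells by -1.49 ± 0.33 (adjusted p = 0.0143) and *Nr4a3* by -1.70 ± 0.33 (adjusted p = 0.00699), and no other member was called. Leaving out parental replicate 1, E0771-Res1 replicate 1 or E0771-Res2 replicate 2 ended both calls (0 of 10). These fits have fewer mice, and why the calls were lost was not tested. *Crem*, a cyclic AMP responsive member of the CREB family, was also lower in NK cells (-1.04), while *Klf2* (1.68), which keeps lymphocytes quiescent and circulating, was higher. Against other T cells (6 mice, 17.3% of genes called), edgeR and DESeq2 both called 0 members. At an unadjusted p under 0.05 in edgeR there were 3 of 10 members, and 852 of all 2775 genes tested. *Nr4a2* was nearest, with a difference of 0.61 ± 0.22 (adjusted p = 0.0729).

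C1qa-low myeloid cells against other T cells (7 mice) gave 38.7% of genes called, 20.8% higher and 17.8% lower, and 7 of 10 members. Higher in myeloid cells were *Atf3* by 2.18 ± 0.20 (edgeR adjusted p = 8.99e-11), *Fos* by 1.83 ± 0.14 (1.7e-12), *Nr4a1* by 0.95 ± 0.14 (9.88e-07), *Jun* by 0.87 ± 0.13 (1.99e-06) and *Fosb* by 0.62 ± 0.15 (0.00122). *Nr4a3* was lower by -1.05 ± 0.23 (0.000474) and *Nr4a2* by -0.57 ± 0.18 (0.0141). The scaling matters here. With library sizes alone (chosen after seeing the data), the median of all genes moved by 0.40 and all calls split into 12.5% higher and 31.3% lower. *Fosb* was then not called (0.22), *Jund* was called lower (-0.72), *Junb* changed sign without a call (-0.24), and 4 members were higher and 3 lower. Of 35 other immediate early genes tested, 22 were higher in C1qa-low cells, led by *Ier3* (2.30), *Egr2* (2.03) and the cytokine brake *Socs3* (1.73), and 3 were lower, with the activation receptor *Cd69* at -1.40.

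Within the myeloid cells, C1qa-high cells had less of most members. In all 8 mice together 49.3% of genes were called between both gates, with 25.2% of genes lower in C1qa-high cells, and 8 of 10 members were called, all lower. The *Nr4a* receptors differed most, with *Nr4a2* at -2.03 ± 0.11 (edgeR adjusted p = 2.4e-11), *Nr4a3* at -1.44 ± 0.17 (7.77e-07) and *Nr4a1* at -1.38 ± 0.10 (1.7e-09). *Junb* followed at -0.64 ± 0.05 (9.61e-09), then *Jund* at -0.57 ± 0.05 (2.28e-08), *Atf3* at -0.53 ± 0.06 (1e-06), *Egr1* at -0.44 ± 0.17 (0.0356) and *Jun* at -0.36 ± 0.09 (0.00194). *Fos* (-0.08 ± 0.08, 0.442) and *Fosb* (-0.15 ± 0.09, 0.155) were not called. With library sizes alone the median of all genes moved by -0.11, all calls split into 34.1% higher and 18.5% lower instead of 24.1% and 25.2%, *Egr1* was not called, *Fos* changed sign without a call, and the other 7 members stayed called lower. The other immediate early genes ran the same way, with 25 of 35 tested lower and 3 higher. Among them *Nfil3* (-1.18), *Csrnp1* (-1.05), *Ier2* (-1.03) and the NF-kB inhibitor *Nfkbia* (-0.91) were lower and *Rgs1* (0.73), a brake on chemokine receptors, was higher. Of the other AP-1 family genes 7 were lower, led by *Fosl2* (-1.02), and 2 higher, with *Maf*, a factor of mature macrophages, at 0.92. The median was -0.55 over members and 0.02 over all genes. C1qa-high cells were also the deeper ones, with a median of 7021 to 11492.5 UMIs per cell by mouse against 5039 to 7838. With C1qa gates set per 10000 UMIs 7 members were called, and 8 in cells with at least 2000 UMIs. The share of all genes called in those runs is not reported here. The part of depth was not tested beyond these runs.

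Tumor lines were then compared within each gate, over mice. In C1qa-low myeloid cells of E0771-Res2 tumors *Nr4a2* and *Nr4a3* were lower and *Jun* was higher than in either other line, by the tests below. *Nr4a2* stood at 154 and 152 CPM for parental replicates 1 and 3, at 72.9, 127 and 119 for E0771-Res1 replicates 1 to 3, and at 53.4, 63.1 and 58.5 for E0771-Res2 replicates 1 to 3. The lines did not overlap, with parental highest and E0771-Res2 lowest. *Nr4a3* had 45.0 and 51.8 CPM for parental mice, 53.7, 52.0 and 68.8 for E0771-Res1 mice, and 19.4, 29.5 and 30.4 for E0771-Res2 mice. Every E0771-Res2 mouse lay below every other mouse. *Nr4a1* did not share this, with 469.8 and 466.4, then 468, 505 and 419, then 431, 498 and 446 CPM.

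*Jun* was at 804 and 762 CPM for parental mice, at 1249, 881 and 857 for E0771-Res1 mice, and at 1182, 2146 and 1895 for E0771-Res2 mice. The E0771-Res2 mice were above the parental mice, but their lowest was below the highest E0771-Res1 mouse. *Fos* had 1549 and 1491, then 1953, 1179.8 and 1368, then 1852, 2584 and 2332 CPM, with the same overlap. *Jund* had 903 and 956 CPM, then 1132, 1042 and 1239.8, then 1082, 1437 and 1510.0, in the same order of lines. *Atf3* had 1123 and 1069.6, then 1452, 1093 and 1324, then 1519, 1558 and 1412 CPM. Parental mice were lower than E0771-Res2 mice in both. *Fosb* (194 to 481 CPM), *Junb* (2128 to 2467) and *Egr1* (51.8 to 195) overlapped between parental and E0771-Res2 mice. E0771-Res2 replicate 1 was below the other E0771-Res2 mice in every member but *Atf3*.

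**Figure D2:**
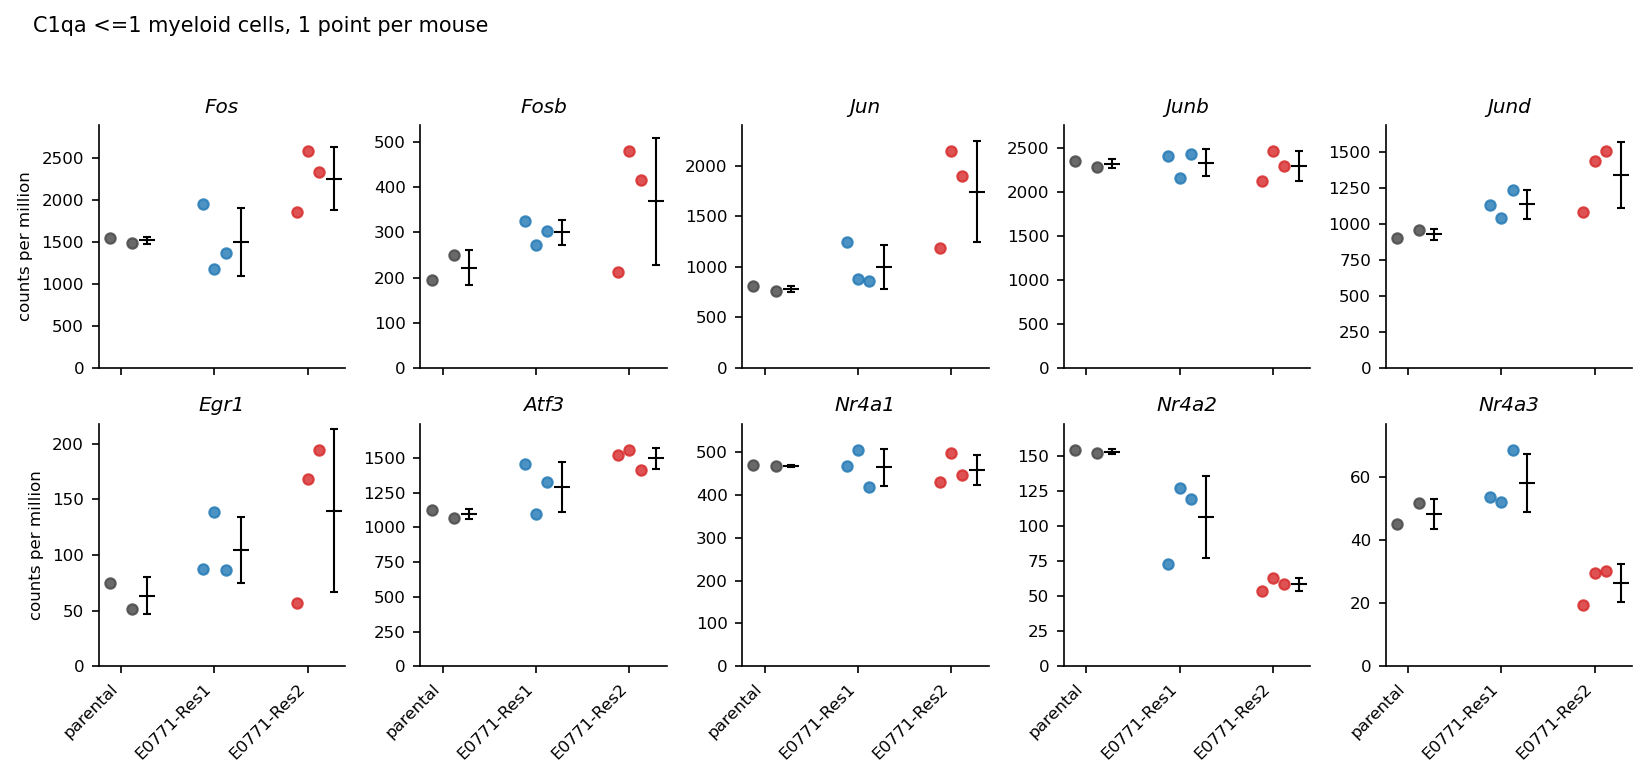
CPM of each member in C1qa-low myeloid cells (vertical axes, linear from 0), 1 point per mouse by tumor line, with the mean and SD beside the points. *Nr4a2* falls from 154 and 152 in the parental mice to 53.4 to 63.1 in E0771-Res2 mice, and *Jun* runs from 762 and 804 to between 1182 and 2146.

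In this gate 3.72% of 9262 genes were called between E0771-Res2 and parental tumors, 1.71% higher and 2.02% lower, and 5 of 10 members. *Nr4a2* was lower in E0771-Res2 by -1.40 ± 0.19 (2.64-fold, edgeR adjusted p = 0.00123, n = 3 against 2) and *Nr4a3* by -0.88 ± 0.20 (adjusted p = 0.0256). Higher were *Jun* at 1.14 ± 0.20 (2.21-fold, adjusted p = 0.0059), *Jund* at 0.52 ± 0.14 (adjusted p = 0.043) and *Atf3* at 0.44 ± 0.11 (adjusted p = 0.0417). *Egr1* (1.10 ± 0.38, 0.131), *Fosb* (0.73 ± 0.24, 0.113) and *Fos* (0.56 ± 0.17, 0.0798) were not called, nor were *Junb* (-0.03 ± 0.10) and *Nr4a1* (-0.04 ± 0.11). The median was 0.48 over members and 0.02 over all genes. *Nr4a2* was called in every alternative run (-1.52 to -1.27). *Jun* was not called without parental replicate 1 (1.17, adjusted p = 0.105) or 3 (1.11, 0.113), and *Nr4a3* without parental replicate 1 (adjusted p = 0.133), parental replicate 3 (-0.79, 0.226) or E0771-Res2 replicate 1 (-0.69, 0.0833). *Jund* was lost in 6 and *Atf3* in 7 of the alternatives run.

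Against E0771-Res1, 3.39% of genes were called in E0771-Res2 (1.92% higher, 1.47% lower), and 4 members. *Nr4a3* was lower by -1.16 ± 0.18 (adjusted p = 0.00233) and was called in every alternative run, and *Nr4a2* by -0.85 ± 0.18 (adjusted p = 0.0145). *Jun* was higher by 0.79 ± 0.17 (adjusted p = 0.0205) and *Fos* by 0.58 ± 0.15 (adjusted p = 0.0432), though *Fos* was lost in 9 alternatives, *Jun* with DESeq2 (0.0624) and without any of 4 single mice, and *Nr4a2* without E0771-Res1 replicate 3 (0.0695) or E0771-Res2 replicate 1 (0.0687) or 3 (0.0573). Between E0771-Res1 and parental tumors 0.0324% of genes and 0 members were called by edgeR and 0 members by DESeq2. At an unadjusted p under 0.05 in edgeR there were 2 of 10 members, and 803 of all 9262 genes tested. *Nr4a2* differed there by -0.55 ± 0.19 (adjusted p = 0.345) and *Jun* by 0.35 ± 0.20 (0.67). The comparisons with E0771-Res2 share its mice, so their calls are not independent.

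Some other measures moved with line in these cells. Depth was among them, with a median of 7660.5 and 7838 UMIs per cell for parental mice and 7099, 7563.5 and 7288 for E0771-Res1 mice. E0771-Res2 mice had 6328, 5265 and 5039. The gate is set on raw C1qa UMIs, so depth also enters which cells it holds. With C1qa gates per 10000 UMIs there were 6 member calls over the 3 comparisons of lines, against 9 in the main run. Summed monocyte markers (7 of 7 detected) were 11816 to 12163 CPM for parental mice, 8484 to 10589 for E0771-Res1 mice and 8158 to 10440.3 for E0771-Res2 mice, and 5 of the 7 were called lower in E0771-Res2 than in parental tumors. The summed heat shock genes were at 4973 to 5195, 6019 to 7283 and 5332 to 6517 CPM. *Malat1*, a nuclear RNA that rises where cytoplasmic RNA is lost, was at 21504 and 21068 CPM for parental mice, 21314 to 25648 for E0771-Res1 mice and 28107 to 33624 for E0771-Res2 mice. The part of these measures in the member differences was not tested beyond the alternative runs.

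C1qa-high cells gave 0 called members in any comparison of lines by edgeR, where 0.196% (E0771-Res1 against parental), 1.92% (E0771-Res2 against parental) and 2.16% (E0771-Res2 against E0771-Res1) of genes were called. At an unadjusted p under 0.05 in edgeR there were 0, 4 and 1 of 10 members, and 1080, 1320 and 1279 of all 8693 genes tested. DESeq2 called 1 member over the 3 comparisons. *Jun* was nearest, at 845 and 745 CPM for parental mice, 1063, 951 and 841 for E0771-Res1 mice, and 1014, 1166 and 1203 for E0771-Res2 mice. The E0771-Res2 mice were all above the parental mice, with a difference of 0.48 ± 0.12 (adjusted p = 0.0586), and it was called in 8 of 21 alternatives run (0.42 to 0.56 over all, adjusted p from 0.00333 to 0.411). They include DESeq2 (0.48, 0.0203), library sizes alone (0.50, 0.0481) and the fits without any 1 E0771-Res1 mouse. *Nr4a2* had 41.7 and 23.8, then 20.9, 21.4 and 30.0, then 12.4, 26.3 and 19.6 CPM, which overlapped, at -0.91 ± 0.32 (0.179). Whether a line difference differed between both myeloid gates was tested as an interaction. That test called 0.0416%, 0.426% and 0.114% of genes in the same order of comparisons and 0 members by edgeR or DESeq2. At an unadjusted p under 0.05 in edgeR there were 2, 6 and 6 of 10 members, and 715, 781 and 572 of all 9617 genes tested. For *Jun*, E0771-Res2 against parental, the interaction was -0.61 ± 0.15 (adjusted p = 0.0949), so the larger change in C1qa-low cells was not shown to differ.

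**Figure D3:**
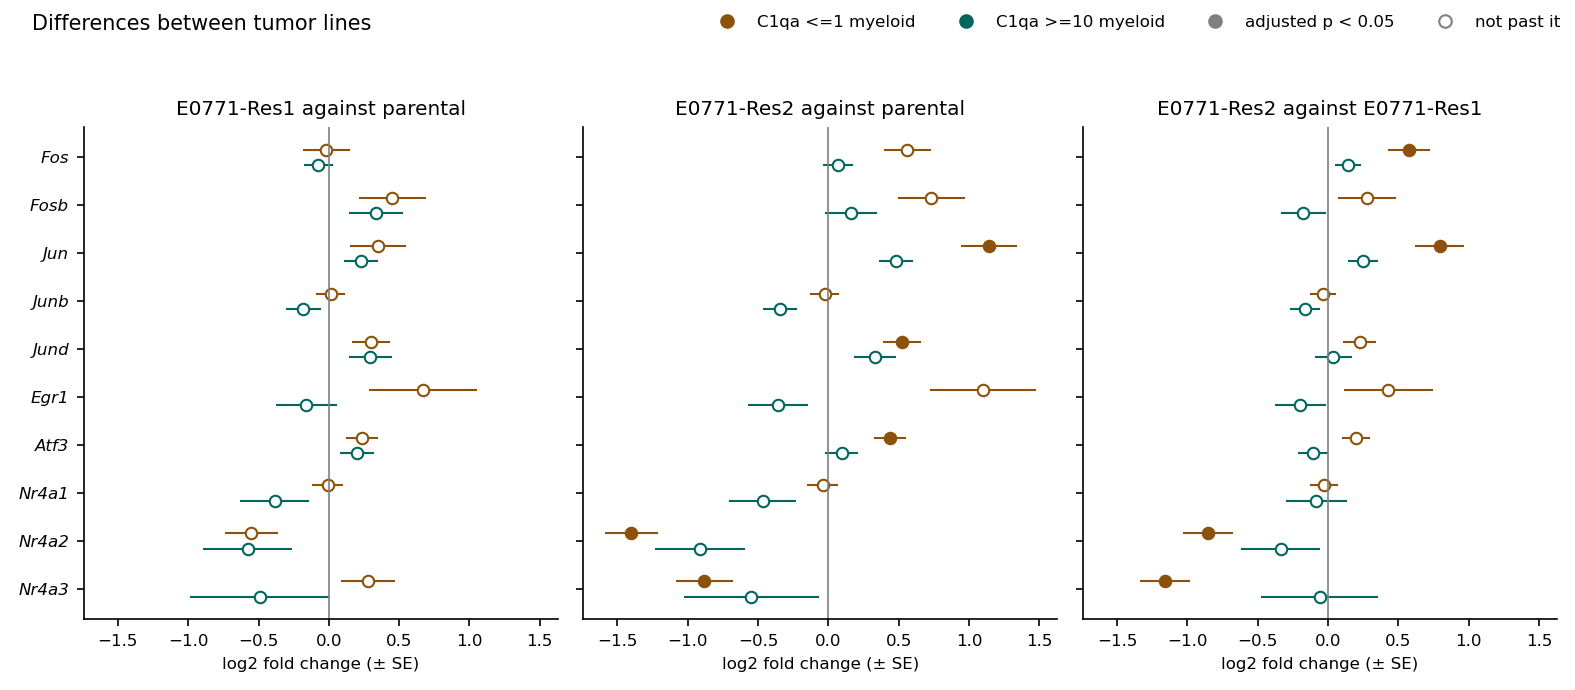
Log2 fold change of each member between tumor lines (horizontal axes) with its SE, in C1qa-low (brown) and C1qa-high (green) myeloid cells, with filled points for members called at an adjusted p under 0.05. In C1qa-low cells *Nr4a2* and *Nr4a3* lie left of 0 and *Jun* right of 0 for E0771-Res2, and no point of C1qa-high cells is filled.

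Over all kept cells, in which fewer cells of a type and less RNA per cell cannot be told apart, 4.36% of genes (2.12% higher, 2.24% lower) and 3 members were called between E0771-Res2 and parental tumors. They were *Nr4a2* (-1.34 ± 0.17, adjusted p = 0.00175), *Nr4a3* (-0.91 ± 0.20, 0.0261) and *Jun* (0.88 ± 0.16, 0.0108). *Jun* was also higher than in E0771-Res1 (0.59 ± 0.14, 0.0365), where 4.2% of genes were called (2.49% higher). Only 1 of these 4 calls was left without parental replicate 1, parental replicate 3 or E0771-Res2 replicate 3. E0771-Res1 against parental gave 0.0353% of genes and 0 members by edgeR, while DESeq2 called *Nr4a2* (-0.74). At an unadjusted p under 0.05 in edgeR there were 2 of 10 members, and 1190 of all 11334 genes tested.

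Among lymphocytes no member was called between lines by edgeR or in any alternative run for CD8 T and NK cells. In CD8 T cells 0.0683%, 0.137% and 0.102% of genes and 0 members were called (E0771-Res1 against parental, E0771-Res2 against parental, E0771-Res2 against E0771-Res1). At an unadjusted p under 0.05 in edgeR there were 0, 2 and 1 of 10 members, and 103, 106 and 140 of all 2928 genes tested. The parental and E0771-Res2 sides were 1 mouse each, assumed to vary like the E0771-Res1 mice, so these counts rest on that assumption. In other T cells 0% of genes were called in each of the 3 comparisons. Of 2544 genes tested, 77, 165 and 113, among them 1, 4 and 2 of the 10 members, had an unadjusted p under 0.05 in edgeR. In these cells *Jun* had 584 and 539 CPM for parental mice, 773 and 784 for E0771-Res1 mice, and 1005, 1060.2 and 1682 for E0771-Res2 mice. The lines did not overlap, but the difference was not called (lowest adjusted p of any member against parental 0.559), DESeq2 called 0 members, and 3 were called once the low-count filter was dropped. In NK cells 0% of genes were again called in each, with 47, 83 and 59 genes and 1, 1 and 0 members at an unadjusted p under 0.05, over 1 parental mouse. The NK fit tested 2619 genes. These lymphocyte gates hold 10 to 52 cells per mouse, and the depth limits what they can show.

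The members' neighbors in the pathway were read from lists of related genes, in C1qa-low cells of E0771-Res2 against parental tumors. Of 35 other immediate early genes tested, 5 were higher. *Klf2* (1.54 ± 0.24, adjusted p = 0.00313), a restraint on inflammatory genes, led *Plk2* (1.34, 0.00217), *Rgs1* (1.15, 0.00587), *Rhob* (0.75, 0.0346) and *Klf6* (0.65, 0.00854). Only *Nfil3* (-0.41, 0.0411) was lower, and the list's median was 0.19. Of 10 phosphatases that switch off MAP kinases, 2 were higher, with *Dusp1*, itself an immediate early gene, at 0.84 ± 0.13 (0.0033). Of 16 other AP-1 family genes tested 1 was lower, *Fosl2* (-0.45, 0.043). Of 21 upstream factors and kinases (SRF, CREB and MAPK genes) 1 was called, *Crem*, lower by -1.01 ± 0.19 (0.00952). Heat shock genes were higher for 3 of 15, *Hspa1b* (1.60), *Hspa1a* (1.498) and *Hsph1* (0.99). In C1qa-high cells of the same comparison 2 of 34 other immediate early genes were higher, *Plk2* (0.81) and *Rgs1* (0.53), and 2 lower, *Ier2* (-0.71) and *Socs3* (-0.68), while *Dusp5* (-1.17) and *Dusp2* (-0.64) were the phosphatases called lower.

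C1qa-low myeloid cells are mixed, and cells in it with a UMI of a dendritic cell gene (*Flt3*, *Ccr7*, *Xcr1*, *Zbtb46* or *Cd209a*), 7.94 to 15.9% of the gate, were set apart as a description. *Nr4a3* stood at 89.1 and 111 CPM in such cells of parental mice, at 209.8, 171 and 156 for E0771-Res1 mice and at 94.4, 75.3 and 120.0 for E0771-Res2 mice. The other cells of the gate had 35.9 and 38.4, then 21.0, 35.7 and 49.6, then 11.6, 20.8 and 16.7 CPM. Every mouse was higher in the cells with a dendritic gene, by a median ratio of 4.22 (2.48 to 9.98). *Nr4a2* was also higher there in 8 of 8 mice, by a median ratio of 1.34 (1.19 to 2.53). *Fos* and *Nr4a1* were lower there in all 8, with median ratios of 0.786 and 0.790. The cells with a dendritic gene made up 15.0 and 15.9% of the gate for parental mice, 10.2 to 15.5% for E0771-Res1 mice and 7.94 to 12.6% for E0771-Res2 mice. Without them the E0771-Res2 differences from parental were -1.43 for *Nr4a2* (adjusted p = 0.0017), -1.22 for *Nr4a3* (0.0299) and 1.09 for *Jun* (0.0048).

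**Figure D4:**
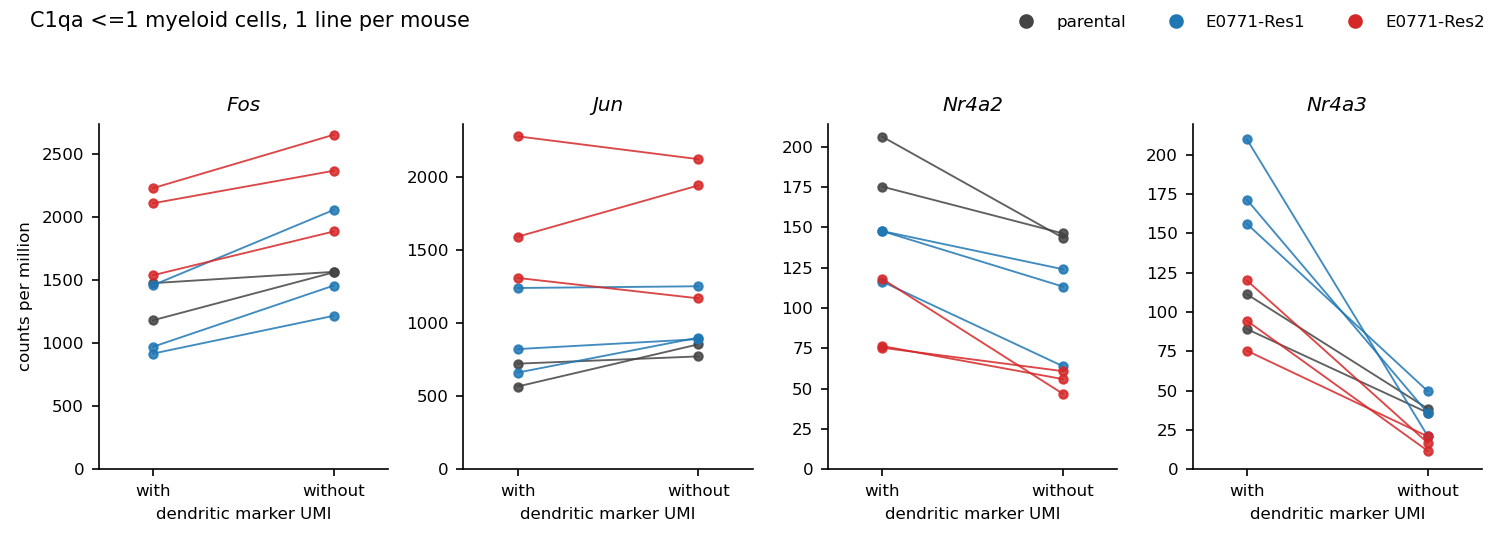
CPM of *Fos*, *Jun*, *Nr4a2* and *Nr4a3* (vertical axes, linear from 0) in C1qa-low myeloid cells with and without a UMI of a dendritic cell gene, 1 line per mouse colored by tumor line. *Nr4a3* drops in all 8 mice from 75.3 to 209.8 with such a UMI to 11.6 to 49.6 without, and *Fos* rises in all 8.

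In C1qa-low cells thinned to 2500 UMIs, *Jun* was found in 74.2% of cells with a *Fos* UMI and 60.0% of those without, and *Nr4a2* in 16.7% of cells with a *Nr4a1* UMI and 8.5% of those without. *Nr4a2* was found in 11.9% of cells with *Fos* and 15.7% without. These shares pool the cells of all mice and tumor lines, and the sums below were not centred within line. The line differences given above therefore enter both, and their part was not tested. Across 34 sums (mouse by gate, centred within gate, and sharing libraries), Pearson's r was 0.81 for *Fos* and *Jun*, 0.74 for *Junb* and *Nr4a1*, 0.72 for *Junb* and *Nr4a3*, and -0.54 for *Fos* and *Nr4a2*. Of 5030 genes, the 5 most like *Fos* were *Jun* (0.81), *Grn* (0.80), *Dusp1* (0.78), *Ear2* (0.74) and *Tsc22d3* (0.71). For *Nr4a1* they were *Nuak2* (0.80), *Syap1* (0.78), *Nfkbib* (0.75), *Junb* (0.74) and *Il4ra* (0.74), and for *Jund* *Chmp1b* (0.68), *Kmt5a* (0.65), *Hspa1a* (0.64), *Cd69* (0.64) and *Cbl* (0.63). The list for *Fos* thus holds its AP-1 partner and a MAP kinase phosphatase beside *Grn*, *Ear2* and *Tsc22d3*, and that for *Nr4a1* holds *Nfkbib*, an NF-kB inhibitor. The sums include small lymphocyte sums whose myeloid RNA varied between mice. In NK cells *Lyz2* ran from 302 to 2801 CPM and *Cst3* from 409 to 5908. Centring within gate leaves this spread in, and its part in these r values was not tested.

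**Figure D5:**
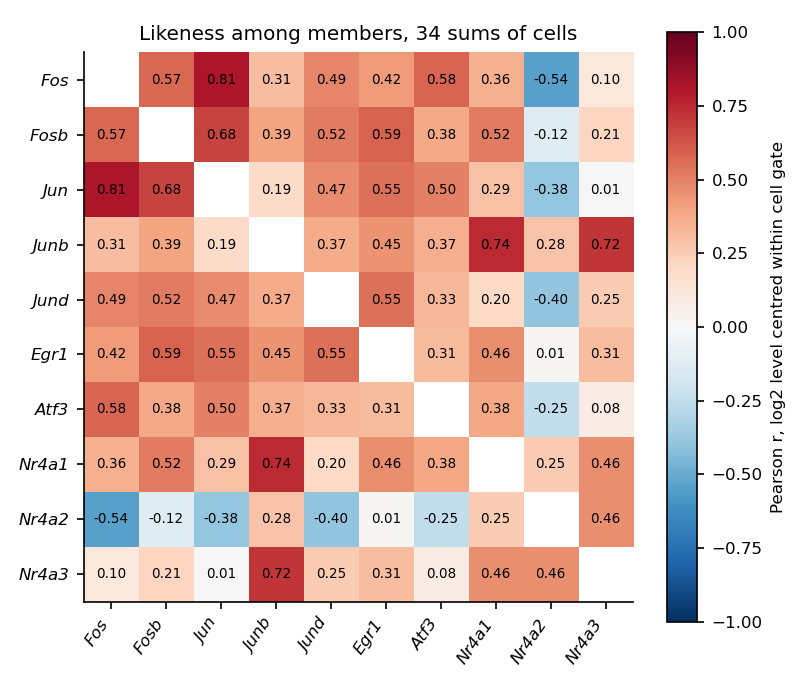
Pearson's r of log2 CPM between each pair of members over 34 sums of cells, centred within each gate, on a color scale from -1 (blue) to 1 (red) with the value in each cell. *Fos* and *Jun* reach 0.81 and *Fos* and *Nr4a2* -0.54.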

How the data were processed

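The deposited files were 1 filtered matrix per mouse of gene UMI counts per cell, which the authors made with Cell Ranger 6.1.2 per the file headers, against mm10 per the labels, from CD45+ DAPI- cells of 8 mice that were tagged, pooled and sequenced on the 3′ kit. The tag rows were not used. The 10 members, the gates and the gene lists were chosen with earlier results of these data known. Cells with 500 to 6000 genes and under 10% mitochondrial counts were kept (10605 of 11430). T cells needed 2 or more UMIs of *Cd3d*, *Cd3e* and *Cd3g*, NK cells 2 or more of *Ncr1* and *Klrb1c*, and myeloid cells 5 or more of *Lyz2*, *Csf1r*, *Cd68*, *Itgam* and *Adgre1* with no T or NK marker. Lymphocytes had at most 1 C1qa UMI and no *Csf1r* or *Adgre1*, and every gate at most 1 B cell marker UMI. Doublets were kept, and leaving out the highest Scrublet scores was an alternative. Mitochondrial, ribosomal protein and Gm genes (8626 genes, 20.4% of counts) were left out, and CPM are counts per 1000000 of the other counts. Sums of at least 10 cells per mouse and gate were tested with edgeR 4.0.16 (quasi-likelihood, TMM, filterByExpr) in R 4.3.3, with the 3 lines in 1 fit or the mouse as a block between gates. SE is the size of the log2 fold change over the square root of F. DESeq2 1.42.0 and the other alternatives are in the closing section. Totals were 5036667 to 18894504 UMIs per mouse, and intervals between mice cover mouse and counting error together. Named genes were all members and, per list, up to 5 called genes per direction of largest size with average log2 CPM of 5 or more, with the 5 most alike genes for *Fos*, *Nr4a1* and *Jund*. The tests were checked on simulated counts.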

Additional observations from a re-analysis of the deposited data

Results flagged for a closer look

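In 4 of the 50 sets of mice tested (10 members in 5 gates), 1 mouse lay apart from the rest of its gate by Dixon's gap test, where chance gives about 1 in 20, or 2.5 of 50. In CD8 T cells E0771-Res2 replicate 2 had 346 CPM of *Nr4a3* against 202 in the next of 5 mice. In NK cells E0771-Res2 replicate 3 had 1345 CPM of *Fos* against 672 in the next of 6 mice, and 1207 CPM of *Atf3* against 364. That NK sum also held 5908 CPM of *Cst3*, a myeloid gene, and the part of this in *Fos* and *Atf3* was not tested. E0771-Res1 replicate 3 had 479 CPM of *Nr4a2* in NK cells against 242 in the next mouse.

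No member passed the test of whether a line difference differed between C1qa-high and C1qa-low myeloid cells, but 4 genes of the related lists did, in 5 comparisons by edgeR with the mouse as a block. *Klf2* differed by -0.88 (C1qa-high minus C1qa-low, log2) for E0771-Res2 against parental, with a change of 1.54 in C1qa-low and 0.61 in C1qa-high cells, and by -0.78 for E0771-Res2 against E0771-Res1 (1.01 and 0.19). *Dusp5* differed by -0.87 for E0771-Res2 against parental (-0.30 and -1.17). *Gadd45b* differed by -0.70 (0.37 and -0.34) and *Ppp1r15a* by -0.65 (0.35 and -0.33), and in neither gate was the change of these genes called.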

How the results depend on the processing

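No value changed direction past the threshold. Of 33 called member results, 15 were called in every alternative run and 18 were lost in at least 1, and of 227 not called, 43 were called in at least 1. Members called between lines in C1qa-high cells (0) became 1 with DESeq2, library sizes alone, left-out genes kept or C1qa gates per 10000 UMIs and 3 with no low-count filter (0 to 1 leaving out single mice). In C1qa-low cells (9) dropping the filter gave 16, C1qa gates per 10000 UMIs 6 and leaving out dendritic cells 7. Leaving out mice gave 4 to 10 there (4 without parental replicate 1 or 3 or E0771-Res2 replicate 3, 5 without E0771-Res2 replicate 2). In other T cells (0) dropping the filter gave 3, and over all kept cells (4) it gave 10, as did DESeq2 (leaving out mice 1 to 8, with 8 without E0771-Res1 replicate 1). CD8 against other T cells (3) gave 5 with wider gates and 2 to 4 leaving out mice. NK against CD8 T cells (2) gave 1 with DESeq2, 5 with wider gates and 0 to 2 leaving out mice. NK against other T cells (0) gave 1 without the filter, 3 with wider gates and 0 to 1 leaving out mice. The interaction (0) gave 8 without the filter, 1 without heat shock cells and 0 to 3 leaving out mice (2 without E0771-Res1 replicate 2, 3 without E0771-Res2 replicate 1). The cause was not tested, beyond the fewer mice of the left-out fits. Dropping the filter adds genes of few counts and changes the spread estimate. Apart from the shares given above for library sizes alone, the share of all genes called in each alternative is not reported here. These member counts therefore have no background beside them.

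Deviations of same-numbered mice correlated at -0.050 to 0.098 in C1qa-high and -0.040 to 0.109 in C1qa-low cells. Mice of different numbers gave -0.119 to 0.113 and -0.086 to 0.040. In C1qa-low cells the same-numbered pairs of E0771-Res1 and E0771-Res2 were at 0.074, 0.097 and 0.109, and their other pairs were all negative. The 2 parental mice deviate as mirror images, so their signs are forced. In the other lines the deviations also sum to 0. A positive same-numbered pair there pulls the other pairs of that mouse negative. Whether replicate numbers pair the mice cannot be told from these values. With the replicate number as a block, calls between lines were 9 in C1qa-low, 7 over all kept cells and 0 in C1qa-high, other T and NK cells, and the CD8 T fit could not be fitted. Leaving out a mouse could not be run for 2 mice in CD8 T and 1 in NK cells.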
